A study of Mus musculus with 2 samples.

Results

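Cluster 2 is a group of B cells with few transcripts per cell among leukocytes of the mouse aorta. Its members are the cells that the authors' deposited table of cells assigns to cluster 2, and they number 665 of 7613 cells. The authors named all 665 B cells, as they did the cells of clusters 1 (719 cells), 4 (623 cells) and 12 (250 cells). The cells came from 2 droplet-based 3' single-cell RNA libraries, 1 from mice given saline and 1 from mice given nt-LNA, the name the labels use for the oligonucleotide. All mice were Apoe-/-, which lack apolipoprotein E in every tissue, and ate a western diet for 4 weeks. During those weeks they received saline or 30 mg/kg nt-LNA once a week. Live CD45+/CD3- cells were sorted from the aortic arch and the thoracic aorta, so T cells should be few. The sample titles speak of macrophages, whereas the sort keeps all leukocytes without surface CD3. Neither the ages nor the number of mice per library could be taken from the sources used here.

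B cells carry membrane immunoglobulin, which signals through the partner chains CD79A and CD79B. Follicular B-2 cells recirculate between blood and lymphoid follicles, express IgD and CD23 (Fcer2a) beside IgM, and home through CXCR5. B-1 cells are a self-renewing population of the body cavities that makes natural IgM. They are known for CD43 (Spn), the alpha chain of the interleukin-5 receptor (Il5ra), the inhibitory lectin Siglec-G and, in the B-1a subset, CD5. Natural IgM from B-1 cells binds oxidised lipoproteins and has been studied as protective in atherosclerosis, which is why both kinds of B cell are distinguished in the aorta.

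Cluster 2 held 156 of 2742 cells of the saline library and 509 of 4871 cells of the nt-LNA library. The 2 libraries shared 2 barcode sequences, 0 of them in cluster 2. The deposited counts are unique molecular identifiers (UMIs) summed over all cells of a cluster with both libraries pooled. Genes could therefore be compared between clusters but not between treatments, and no spread over cells or animals could be had. Levels are given as CPM, the count of a gene scaled to the total UMIs of its cluster, and intervals are exact 95% Poisson intervals that cover counting error only. Clustering used these expression values, so differences between clusters are descriptions and carry no test.

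The B cell label was checked against markers, and they were high. All 14 B cell markers of the list were detected, and their summed level was 19383 CPM in cluster 2. The same sum was 11500 CPM in cluster 1, 7839 CPM in cluster 4, 8178 CPM in cluster 12 and 418 to 3987 CPM in the other clusters. Cd79a, a signalling chain of the B cell receptor, stood at 5662 CPM (5543 to 5782) in cluster 2, against 3376 CPM in cluster 1, 2248 CPM in cluster 4 and 2309 CPM in cluster 12. Ms4a1, which encodes CD20, stood at 2232 CPM (2158 to 2308), against 1027, 902 and 821 CPM in clusters 1, 4 and 12. Ebf1, a transcription factor that sets the B lineage, stood at 2483 CPM (2404 to 2563), against 1419, 557 and 819 CPM. For 9 of the 14 markers cluster 2 had the highest CPM of all 20 clusters, whereas it was highest for 7.04% of the 10874 genes with at least 20 counts in the 4 B cell clusters. Of the 4 marker genes given for these cells, Il5ra and Siglecg were among its 10 leading genes by ratio to the other clusters, and Ms4a1 and Cd79b among its leading 50. These 4 were given together with the cluster, so their ranks are a description and no support for the label.

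Markers of other cell types were below the levels of the clusters that they mark, but several were above the other B cell clusters. The 14 T cell markers summed to 766 CPM in cluster 2, against 447, 300 and 7853 CPM in clusters 1, 4 and 12 and 22779 CPM in cluster 5, which the authors named T cells. Cd3e, a chain of the CD3 complex that the sort selected against, had 25.5 CPM in cluster 2, below the 308 CPM of cluster 12. Macrophage and monocyte markers summed to 350 CPM, against up to 37687 CPM in cluster 19, with Fcgr1 at 0. Neutrophil markers summed to 261 CPM, against 112, 63.5 and 124 CPM in clusters 1, 4 and 12 and 104744 CPM in cluster 7. Natural killer markers summed to 53.7 CPM with Klrb1c at 0, against 34.5, 119 and 150 CPM in clusters 1, 4 and 12. Dendritic cell markers summed to 604 CPM with Xcr1 at 0, against 466, 166 and 244 CPM and up to 2642 CPM in cluster 18. Vessel wall markers summed to 157 CPM, against 93.7, 44.999 and 86.2 CPM and up to 592 CPM in cluster 0, with Myh11, Cnn1, Col3a1, Pdgfra and Pdgfrb at 0. Over the mean of clusters 1, 4 and 12, 4 of 5 dendritic cell markers and 4 of 6 neutrophil markers tested were over 2-fold higher. Of all 10874 genes 17.7% were higher. With the median of all genes set to 0, 3 and 3 of these markers were higher, beside 5.89% of all genes. Ranked from the highest sum among the 20 clusters, cluster 2 was at rank 2 for plasma cell markers, 3 for vessel wall markers and 4 for dendritic cell markers. Most of the vessel wall sum was the single gene Pecam1, and most of the dendritic cell sum was Ccr7. Per cell, both genes were less numerous in cluster 2 than in each of clusters 1, 4 and 12. Pecam1 averaged 0.335 UMIs per cell in cluster 2, against 0.541, 0.477 and 0.964 there. The part of markers of other cell types in the results was not tested. For a gene at 0 counts in cluster 2 the limit used is 3 counts, which equal 1.96 CPM.

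Per cell, cluster 2 carried few transcripts, and the difference from cluster 1 was unequal among kinds of RNA. Its mean was 2296 UMIs per cell, against 5925 in cluster 1, 11201 in cluster 4 and 11884 in cluster 12. Mitochondrially encoded transcripts, which make respiratory chain subunits inside the organelle, averaged 232 UMIs per cell in cluster 2 and 224 in cluster 1. Malat1, a long non-coding RNA held in the nucleus, averaged 217 UMIs per cell in cluster 2 and 209 in cluster 1. Transcripts of ribosomal proteins averaged 252 UMIs per cell in cluster 2 and 2000 in cluster 1, a difference of 7.93 times. Immunoglobulin transcripts averaged 63.8 UMIs per cell in cluster 2 and 88.4 in cluster 1. Transcripts other than mitochondrially encoded, ribosomal protein and Malat1 ones, with immunoglobulin included, averaged 1595 and 3492. Cluster 2 thus held about as many mitochondrial and Malat1 transcripts per cell as cluster 1, and far fewer ribosomal protein transcripts.

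As shares of all UMIs these values set cluster 2 apart from the other B cells. Mitochondrially encoded transcripts made up 10.1% of its UMIs, against 2.53 to 11.2% (median 3.53%) in the other 19 clusters. Ribosomal protein transcripts made up 11.0%, against 9.75 to 36.4% (median 20.99%). Malat1 made up 9.45%, from 1.30% in cluster 6 to 11.6% in cluster 5 elsewhere. Clusters 5, 14 and 16, which the authors named T cells, lay near cluster 2 in the mitochondrial and ribosomal protein shares, while their Malat1 shares were 11.6%, 3.88% and 7.29%. A level in CPM is relative to the total, so the low ribosomal share of cluster 2 raises the CPM of its other genes, and gene ratios below are read against the median of all genes. Depth and RNA quality differ between cluster 2 and its references in every gene comparison that follows, and their part in the results was not tested.

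**Figure D1:**
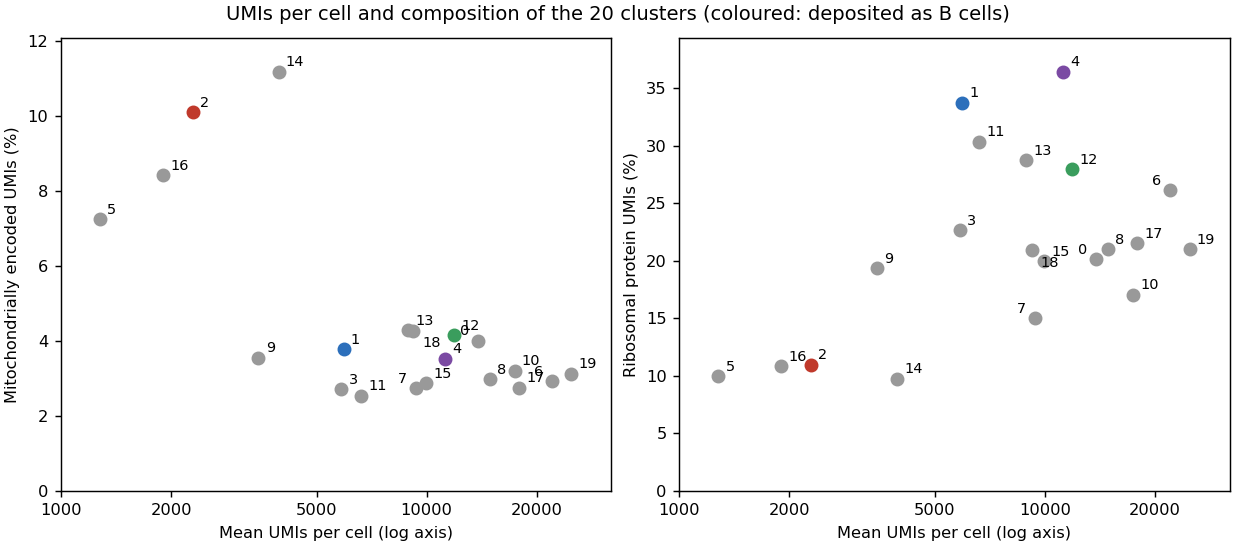
Each point is 1 of the 20 clusters, with its number; the x axis is the mean number of UMIs per cell on a log axis, and the y axis the percent of UMIs from mitochondrially encoded genes (left) or ribosomal protein genes (right). Clusters deposited as B cells are coloured; cluster 2 lies at 2296 UMIs per cell, 10.1% mitochondrial and 11.0% ribosomal protein UMIs, apart from clusters 1, 4 and 12.

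The share of cluster 2 among all cells was 5.69% (4.85 to 6.62%, exact Clopper-Pearson) in the saline library and 10.4% (9.60 to 11.3%) in the nt-LNA library. Among the 4 B cell clusters alone, cluster 2 held 156 of 736 cells (21.2%, 18.3 to 24.3%) in the saline library and 509 of 1521 cells (33.5%, 31.1 to 35.9%) in the nt-LNA library, a ratio of 1.58 (1.32 to 1.90). With the other low-UMI clusters 5, 14 and 16 left out of all cells, the ratio was 2.01 (1.68 to 2.42). The direction was the same under these denominators, and the 2 intervals did not overlap under any of them.

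The contrast with the other B cell clusters was uneven. Against cluster 1 alone, cluster 2 made up 31.0% of 504 cells in the saline library and 57.8% of 880 cells in the nt-LNA library, a ratio of 1.87 (1.56 to 2.25). Against cluster 4 alone the shares were 47.9% and 52.9%, a ratio of 1.11 (0.922 to 1.33). Against cluster 12 alone they were 71.6% and 73.0%, a ratio of 1.02 (0.851 to 1.23). The share of cluster 1 among all cells was lower in the nt-LNA library (ratio 0.600), while the shares of clusters 4 and 12 were higher (ratios 1.5 and 1.71). Those of the low-UMI clusters 5 (2.29) and 14 (2.53) were higher too. For the low-UMI cluster 16 the ratio was 1.19 with an interval of 0.789 to 1.82, which holds 1. With 1 library per treatment these intervals cover the counting of cells only, and a treatment effect cannot be told apart from a difference between libraries.

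**Figure D2:**
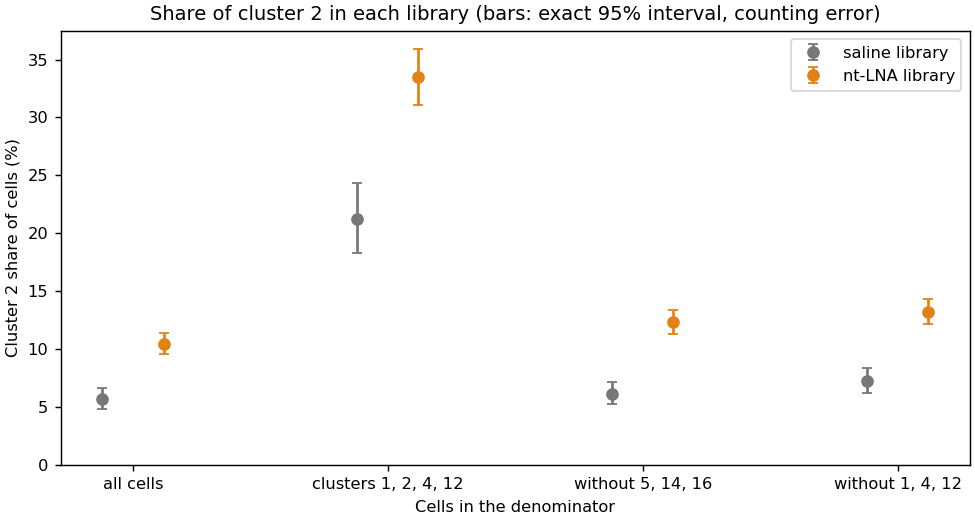
Points give the percent of cells in cluster 2 in the saline (grey) and nt-LNA (orange) library, and bars the exact 95% interval for counting error, for 4 choices of the cells in the denominator on the x axis. The share was higher in the nt-LNA library in each, from 5.69% against 10.4% of all cells to 21.2% against 33.5% of the B cell clusters.

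Among the gene lists, the B-1 genes had the largest median ratio of cluster 2 over cluster 1. Of 20 B-1 genes, 15 were over 2-fold higher in cluster 2 than in cluster 1 and 0 were over 2-fold lower, with a median log2 ratio of 2.46. Over all 9323 genes tested in that comparison, 19.9% were higher and 6.23% lower by that fold, and the median was 0.41. With that median set to 0, 14 of the 20 were higher and 1 was lower, beside 7.65% and 13.9% of all genes. S100a6, a small calcium-binding protein, stood at 3531 CPM (3438 to 3627) in cluster 2, 261 CPM in cluster 1, 3629 CPM in cluster 4 and 1773 CPM in cluster 12. Ahnak, a very large scaffold protein, stood at 1205 CPM (1151 to 1261), against 90.6, 718 and 429 CPM in clusters 1, 4 and 12. Both genes were thus low in cluster 1 alone, and cluster 2 was at or above the level of cluster 4.

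Surface receptors of the list followed the same order. Il5ra stood at 124 CPM (107 to 143) in cluster 2, 14.3 CPM in cluster 1, 68.1 CPM in cluster 4 and 34.3 CPM in cluster 12. Ctla4, an inhibitory receptor known from T cells, stood at 131 CPM (113 to 150), against 4.46, 129 and 66.3 CPM. Itgb1, the beta-1 integrin chain, stood at 333 CPM (305 to 364), against 29.1, 174 and 163 CPM. Cd9, a tetraspanin, stood at 131 CPM (113 to 150), against 12.2, 114 and 55.5 CPM. Fcrl5, an Fc receptor-like protein, stood at 69.4 CPM (56.8 to 84.0), against 10.8, 32.1 and 16.2 CPM. All 5 were lowest in cluster 1.

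The transcription factors Zbtb32 and Bhlhe41, which restrain B-1 cell expansion, stood at 51.7 CPM (41.0 to 64.5) and 75.3 CPM (62.2 to 90.4) in cluster 2. Cluster 1 had 4.93 and 15.02 CPM of them, and cluster 4 had 81.0 and 117 CPM. Other members did not follow the order. Cd5, the defining protein of B-1a cells, had 17 counts in cluster 2 (11.1 CPM, 6.49 to 17.8), against 5.87 CPM in cluster 1, 4.73 CPM in cluster 4 and 43.8 CPM in cluster 12, where T cell markers were also high. Plac8 was lower in cluster 2 (566 CPM) than in cluster 4 (1617 CPM) and close to cluster 1 (597 CPM). Hopx, a small homeodomain protein, had 22.9 CPM in cluster 2 and 43.7, 46.0 and 27.9 CPM in clusters 1, 4 and 12.

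The B-1 genes also stood out on a scale that is not divided by the total, though it moves with depth. Counted as UMIs per cell, 14 of the 20 were more numerous in cluster 2 than in cluster 1, although cells of cluster 2 held fewer UMIs in all. Over all 9323 genes the share that was more numerous per cell in cluster 2 was 9.46%. S100a6 averaged 8.11 UMIs per cell in cluster 2 and 1.55 in cluster 1, and Ctla4 0.301 and 0.0264. Siglecg averaged 1.69 and 1.40 UMIs per cell, and Il5ra 0.286 and 0.0848. Against cluster 4 the order per cell was the reverse for these genes, with 40.7 UMIs of S100a6, 2.61 of Siglecg and 0.762 of Il5ra per cell there. The B cell markers gave a different picture from the B-1 genes, since 0 of 14 were more numerous per cell in cluster 2 than in cluster 1. Cd79a averaged 13.0 UMIs per cell in cluster 2 and 20.001 in cluster 1.

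Against cluster 4 the balance of the B-1 list depended on the scaling. Of the 20 genes, 4 were over 2-fold higher in cluster 2 and 3 were lower, beside 33.3% higher and 7.29% lower of 9792 genes. When the median of all genes, 0.61, was set to 0, 1 was higher and 6 were lower, beside 9.77% and 17.8% of all genes. The list median of 0.19 then turned to -0.42. Against cluster 12, 10 of the 20 were higher and 2 lower (median 1.01), beside 12.2% and 12.8% of 9434 genes with a median of 0.12. The B-1 list was not alone. A list of age-associated B cell genes, which shares Fcrl5 with it, had the next largest median against cluster 1, 1.93. Of 8 tested, 6 were higher and 0 lower, beside 19.9% and 6.23% of all genes. With the all-gene median set to 0, 5 were higher and 0 lower, beside 7.65% and 13.9%.

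Follicular B-2 genes showed the opposite arrangement, with cluster 2 near cluster 1 and above cluster 4. Of 16 such genes, 15 were over 2-fold higher in cluster 2 than in cluster 4 and 0 were lower, with a median log2 ratio of 1.86. With the all-gene median set to 0, 12 were higher and 1 was lower. Against cluster 1, 3 of 16 were higher and 0 were lower, or 1 and 1 with the all-gene median set to 0, and the median was 0.53, or 0.12 relative to all genes. Against cluster 12, 11 of 16 were higher, with a median of 1.38, beside 12.2% of all genes. Of all genes 33.3% were higher and 7.29% lower than in cluster 4, and 19.9% and 6.23% than in cluster 1. With the all-gene median set to 0, these shares were 9.77% and 17.8% against cluster 4 and 7.65% and 13.9% against cluster 1.

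Fcer2a, which encodes the low-affinity IgE receptor CD23, stood at 337 CPM (309 to 368) in cluster 2, 319 CPM in cluster 1, 40.1 CPM in cluster 4 and 121 CPM in cluster 12. Cr2, complement receptor CD21, stood at 178 CPM (158 to 201), against 155, 14.9 and 56.5 CPM. Ighd, the heavy chain of IgD, stood at 770 CPM (726 to 815), against 791, 140 and 296 CPM. Fcrl1, an Fc receptor-like protein of resting B cells, stood at 111 CPM (94.6 to 129), against 108, 17.5 and 39.7 CPM. For these 4 genes clusters 2 and 1 differed by at most 1.15-fold in CPM, and cluster 4 was the lowest of the 4 clusters. Per cell, 1 of the 16 follicular genes was more numerous in cluster 2 than in cluster 1, with 0.774 and 1.89 UMIs of Fcer2a and 1.77 and 4.69 UMIs of Ighd per cell.

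The other follicular genes spread out around these. Cxcr5, the receptor for the follicular chemokine, stood at 221 CPM (198 to 246) in cluster 2, above the 72.5, 102 and 68.0 CPM of clusters 1, 4 and 12, and was the member with more UMIs per cell than in cluster 1 (0.508 against 0.430). S1pr1, the receptor that guides lymphocytes back to blood and lymph, stood at 449 CPM (416 to 483), against 201, 156 and 142 CPM. Klf2, a transcription factor that keeps lymphocytes quiescent, went the other way, with 827 CPM (782 to 874) in cluster 2 and 1315, 1487 and 1024 CPM in the others.

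**Figure D3:**
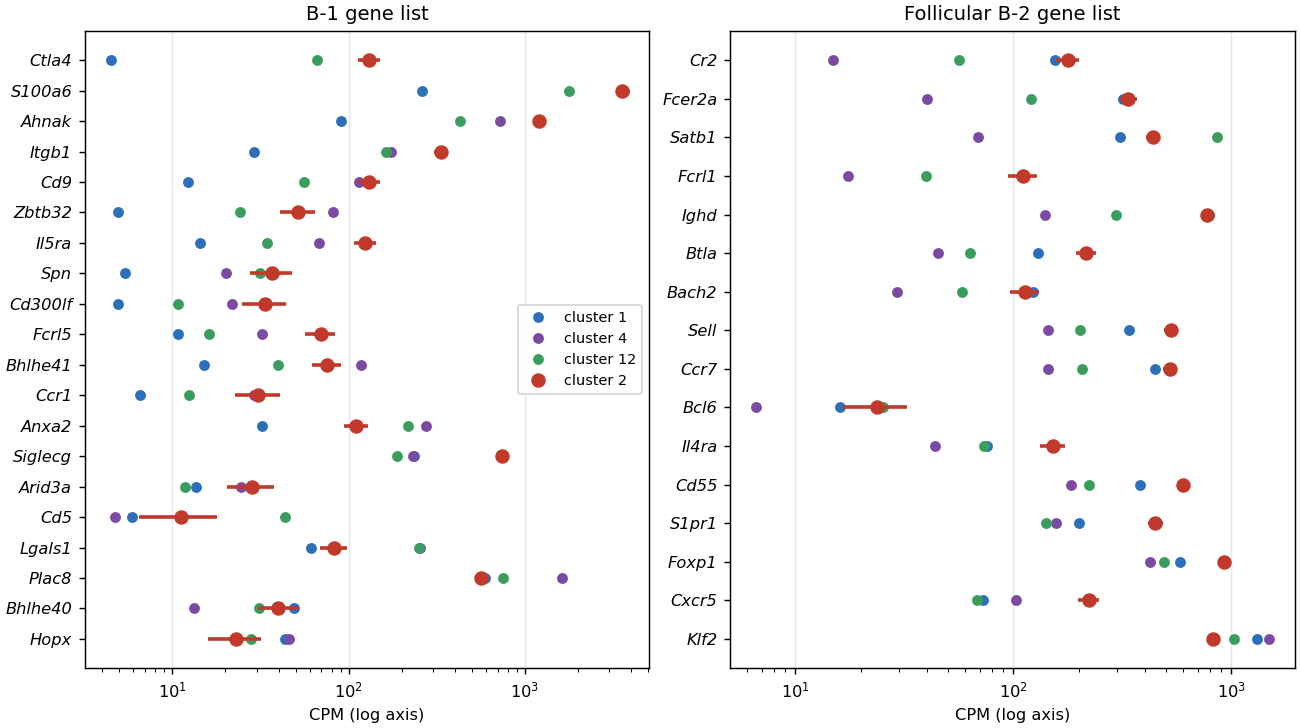
CPM on a log axis of the 20 B-1 genes (left) and 16 follicular B-2 genes (right) in clusters 1, 2, 4 and 12, ordered by the ratio of cluster 2 to cluster 1 (left) or to cluster 4 (right); red bars are exact 95% Poisson intervals of cluster 2. In the left panel cluster 2 lies far to the right of cluster 1 for most genes (S100a6 3531 against 261 CPM), and in the right panel it lies beside cluster 1 and to the right of cluster 4 (Fcer2a 337, 319 and 40.1 CPM).

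The same pattern was followed over the genes that separate clusters 1 and 4, a set chosen after the data had been seen. The genes were picked by the values of clusters 1 and 4, with which cluster 2 is then compared. Its place above the lower cluster is thus partly set by that choice. The shares of all genes, which were not so picked, are no like reference, and the counts are a description. Among genes with at least 100 counts in those 2 clusters together, 102 were over 4-fold higher in cluster 4 than in cluster 1 on the log2(CPM + 0.5) scale. Cluster 2 was within 2-fold of cluster 4 for 63 of them (61.8%), with a median log2 ratio of -0.47 to cluster 4 and 2.61 over cluster 1. It was over 2-fold lower than cluster 4 for 38 and higher for 1, beside 7.29% lower and 33.3% higher of all genes. It was over 2-fold above cluster 1 for 92, beside 19.9% of all genes. Another 48 genes were over 4-fold higher in cluster 1 than in cluster 4. Cluster 2 was within 2-fold of cluster 1 for 43 of these (89.6%), with medians of 0.01 to cluster 1 and 2.41 over cluster 4. For the other 5 it was lower than cluster 1. It was over 2-fold above cluster 4 for 44 of the 48, beside 33.3% of all genes. Cluster 12 was within 2-fold of the higher cluster for 34 of 102 and 13 of 48.

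With the median of all genes set to 0, cluster 2 was within 2-fold of the higher cluster for 51 of 102 and 37 of 48 genes. Its medians were then -1.09 to cluster 4 and 2.21 over cluster 1 for the first set, and -0.40 to cluster 1 and 1.80 over cluster 4 for the second. In this setting it was over 2-fold above cluster 1 for 84 of the 102 genes, beside 7.65% of all genes. It was over 2-fold above cluster 4 for 40 of the 48, beside 9.77% of all genes. As a description, cluster 2 had most genes of both sets above the cluster that they were picked for being low in. Its medians were then below the cluster where they are high. The counts are sums over 665 cells, and whether single cells carried both sets or the cluster holds cells of both kinds cannot be told apart from them.

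Beyond the 2 lists, the genes most raised over the other 19 clusters were Ighg3, Gm15228, Fcrl5, Il5ra and Gm31243, followed by Ahnak2, Gm30211, Siglecg, 2010007H06Rik and Trim7. Of 14202 genes, 10.0% were over 2-fold higher in cluster 2 than the unweighted mean of the rest, and 26.5% were over 2-fold lower. Ahnak2, a relative of Ahnak, stood at 96.9 CPM (81.9 to 114) in cluster 2, 0.939 CPM in cluster 1, 84.1 CPM in cluster 4 and 23.9 CPM in cluster 12. Gm15228, an unnamed gene model, stood at 132 CPM (115 to 152), against 7.98, 77.1 and 30.6 CPM. Nid1, a basement membrane protein, stood at 95.6 CPM (80.7 to 112), against 9.39, 69.4 and 35.0 CPM. These 3 genes had the arrangement of the B-1 list, low in cluster 1 and near cluster 4. Trim7, a ubiquitin ligase, stood at 274 CPM (249 to 302), against 124, 58.3 and 69.3 CPM, and was thus nearer to cluster 1 than to cluster 4.

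Against the mean of clusters 1, 4 and 12, 17.7% of 10874 genes were over 2-fold higher in cluster 2 and 8.70% were over 2-fold lower. Of these calls 67.1% were higher. That split depended on the scaling, with 33.5% higher when mitochondrially encoded and ribosomal protein genes were left out of the totals and 27.5% higher when the median of all genes was set to 0. In that last setting 5.89% of genes were higher and 15.5% lower, and the counts for gene lists under it are given below as centred counts. The genes with the largest ratios included Gm26870, mt-Nd6, Prkab2, Lifr and Il1b. Il1b, the cytokine interleukin-1 beta, stood at 81.9 CPM (68.1 to 97.5) in cluster 2, against 21.1, 15.6 and 27.9 CPM in clusters 1, 4 and 12 and a mean of 566 CPM in the other 19 clusters. The neutrophil markers were likewise highest in cluster 2 of these clusters (summed 261 CPM, against 63.5 to 124 CPM in clusters 1, 4 and 12). The macrophage and monocyte markers were not, with 350 CPM in cluster 2 and 487 CPM in cluster 12. The part of either in the Il1b result was not tested.

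Immunoglobulin transcripts separated cluster 2 from cluster 4. Jchain, which joins secreted IgM and IgA, stood at 57.6 CPM (46.2 to 71.0) in cluster 2, 10.8 CPM in cluster 1, 2597 CPM in cluster 4 and 10.4 CPM in cluster 12. Igha, the IgA heavy chain, stood at 5.89 CPM from 9 counts, against 7.04, 1820 and 2.69 CPM. Ighm, the IgM heavy chain, stood at 6633 CPM (6504 to 6763), against 2634, 9453 and 2500 CPM, and averaged 15.2 UMIs per cell in cluster 2, 15.6 in cluster 1 and 106 in cluster 4. Plasma cell markers summed to 1343 CPM in cluster 2 and 4263 CPM in cluster 4. Prdm1, the transcription factor that drives antibody secretion, stood at 33.4 CPM in cluster 2, 3.05 CPM in cluster 1, 39.8 CPM in cluster 4 and 18.2 CPM in cluster 12. Cluster 2 was near cluster 4 in Prdm1 but not in Jchain or Igha.

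Class-switched heavy chains (IgG, IgA and IgE) made up 144 of the heavy chain constant counts of cluster 2, a share of 1.26% (1.06 to 1.48%). The shares were 0.518% in cluster 1, 0.907% in cluster 12 and 23.5% in cluster 4. The switched counts of cluster 2 had their own makeup. Ighg3 stood at 38.0 CPM (28.8 to 49.1) from 58 counts, against 3.52, 12.5 and 4.38 CPM in clusters 1, 4 and 12. Ighg2c stood at 19.6 CPM (13.3 to 28.0) from 30 counts, against 0.704, 0.717 and 0.337 CPM, which rest on 3, 5 and 1 counts. Ighg1 and Igha, by contrast, were at 7.20 and 5.89 CPM in cluster 2 and at 511 and 1820 CPM in cluster 4. The IgG subclass genes are related in sequence, and the deposited counts do not show how reads that match several of them were assigned.

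Ighd made up 10.4% (9.84 to 11.0%) of Ighm and Ighd counts in cluster 2, 23.1% in cluster 1, 1.46% in cluster 4 and 10.6% in cluster 12. The lambda light chain share was 13.7% (13.3 to 14.1%), against 22.2%, 10.8% and 23.5%. Both shares lay between those of clusters 1 and 4. Heavy chain variable genes were spread over many members: 53 of 185 were detected from 171 counts, the 5 highest made up 25.7% of counts, and the highest, Ighv1-50, 5.85% (2.84 to 10.5%). In cluster 4 the 5 highest made up 54.5% of 595 counts, led by Ighv4-1 with 19.5% (16.4 to 22.9%). In cluster 1 the 5 highest made up 18.9% of 265 counts. Ighv11-2, a variable gene known from B-1 cells, was at 0 counts in cluster 2, against 8.60 CPM in cluster 4.

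Receptor signalling and its brakes differed in how far cluster 2 stood from cluster 1. Of 23 B cell receptor signalling genes, 2 were over 2-fold higher in cluster 2 than in cluster 1 and 0 lower (centred counts 0 and 2), and the median of 0.30 turned to -0.11 relative to all genes. Of 16 inhibitory receptors and phosphatases, 7 were higher and 1 lower than in cluster 1 (centred counts 5 and 1). Their median was 0.92, or 0.51 relative to all genes. Beside these 2 lists, 19.9% of all genes were higher and 6.23% lower than in cluster 1, or 7.65% and 13.9% when centred. Against the mean of clusters 1, 4 and 12, 10 of the 16 were higher and 0 lower (centred counts 6 and 2). Of all genes 17.7% were higher and 8.70% lower than that mean, or 5.89% and 15.5% when centred. Siglecg, which damps receptor signals in B-1 cells, stood at 736 CPM (694 to 780) in cluster 2, against 236, 233 and 187 CPM in clusters 1, 4 and 12. Fcgr2b, the inhibitory receptor for IgG complexes, stood at 178 CPM (158 to 201), against 67.1, 61.3 and 83.1 CPM. Cd22, a lectin that recruits the phosphatase SHP-1, stood at 396 CPM (365 to 428), against 222, 80.3 and 133 CPM. Ptpn6, which encodes SHP-1 itself, went the other way with 132 CPM (114 to 151), against 329, 156 and 188 CPM.

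Transcription factors of the B lineage were mostly level with cluster 1. Of 32, 4 were over 2-fold higher than in cluster 1 and 0 lower (median 0.25, or -0.16 relative to all genes, with centred counts of 2 and 3). Of all genes 19.9% were higher and 6.23% lower than in cluster 1, or 7.65% and 13.9% when centred. Pax5, which holds B cell identity, stood at 289 CPM (262 to 317) in cluster 2, against 316, 115 and 139 CPM in clusters 1, 4 and 12. Bach2, which delays plasma cell formation, stood at 113 CPM (96.4 to 131), against 123, 29.2 and 57.9 CPM. Both lay near cluster 1 and above cluster 4. Tcf4, which encodes E2-2, stood at 433 CPM, against 157, 219 and 154 CPM, and Zeb2 at 153 CPM (134 to 174), against 62.0, 55.2 and 79.1 CPM.

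Survival, migration and presentation genes were compared next. Of 24 migration genes, 12 were over 2-fold higher than the mean of clusters 1, 4 and 12 and 2 lower (centred counts 7 and 2), with a median of 1.02, or 0.68 relative to all genes. The shares of all genes were 17.7% higher and 8.70% lower, or 5.89% and 15.5% when centred. Itga4, the integrin chain that binds VCAM-1 on vessel walls, stood at 510 CPM (475 to 547), against 177, 179 and 183 CPM. Itgb7, its partner for gut homing, stood at 329 CPM (301 to 359), against 94.1, 176 and 115 CPM. Itgam, the CD11b chain found on B-1 cells of the body cavities and on myeloid cells, stood at 48.5 CPM (38.1 to 60.8), against 5.16, 20.8 and 18.8 CPM. Ccr9, a gut-homing receptor, was lower than in cluster 12 (52.4 against 423 CPM) but higher in CPM than in clusters 1 and 4. Its log2 ratio over cluster 1 was 1.09. Per cell it averaged 0.120 UMIs in cluster 2, against 0.145, 0.194 and 5.02 in clusters 1, 4 and 12. These 3 integrin genes had their highest CPM of the 4 B cell clusters in cluster 2, as did 49.4% of all 10874 genes. Per cell, all 3 were more numerous in cluster 2 than in cluster 1 and less numerous than in clusters 4 and 12.

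Among 20 survival and cytokine receptor genes, 7 were higher and 3 lower than the mean of clusters 1, 4 and 12 (median 0.45, or 0.11 relative to all genes), beside 17.7% and 8.70% of all genes. The centred counts turned this balance to 3 higher and 4 lower, beside 5.89% and 15.5% of all genes. Il6ra, a chain of the interleukin-6 receptor, stood at 96.3 CPM, against 17.4, 41.1 and 33.7 CPM. Bcl2, which blocks apoptosis, stood at 290 CPM, against 129, 115 and 92.2 CPM. Tnfrsf13c, the receptor for the survival factor BAFF, stood at 141 CPM, against 189, 76.7 and 84.8 CPM. Tnfrsf17, a receptor of plasma cells, had 1 count in cluster 2 and 9.74 CPM in cluster 4.

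The 12 genes of class II presentation were level with cluster 1 and above cluster 4. Against cluster 1, 0 were over 2-fold higher or lower (median 0.50, or 0.10 relative to all genes), beside 19.9% and 6.23% of all genes. Against cluster 4, 11 were higher (median 1.25), beside 33.3% of all genes. With the all-gene median set to 0, 3 were higher than in cluster 4 (median 0.64), beside 9.77% of all genes. Of 20 genes of co-stimulation and cytokines tested against the mean of clusters 1, 4 and 12, 7 were higher and 1 lower (centred counts 5 and 1). Cd80, a ligand of CD28 and CTLA-4, stood at 34.7 CPM (26.0 to 45.4), against 2.11, 21.1 and 10.1 CPM, and Cd86 at 237 CPM, against 99.3, 72.8 and 72.0 CPM. Cd80 had the arrangement of the B-1 genes, but belongs to the list of age-associated B cell genes and not to the B-1 list. Of 20 genes of endosomal and toll-like receptor sensing, 8 were higher and 0 lower (median 0.83; centred counts 4 and 0). Beside the last 2 lists, 17.7% of all genes were higher and 8.70% lower, or 5.89% and 15.5% when centred. Tlr7, which senses single-stranded RNA, stood at 40.6 CPM (31.1 to 52.1), against 21.6, 29.1 and 22.9 CPM.

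Of 29 type I interferon response genes, 2 were higher and 3 lower than the mean of clusters 1, 4 and 12 (centred counts 1 and 4), and the median of 0.19 turned to -0.16 relative to all genes. Ifi27l2a stood at 595 CPM, against 1576, 1370 and 1090 CPM. Of 24 immediate early genes, 4 were higher and 0 lower (median 0.25, or -0.09 relative to all genes; centred counts 0 and 1). Of 17 heat shock and stress genes, 2 were higher and 2 lower (median 0.01; centred counts 0 and 3). These 3 lists had medians below that of all genes, 0.34. Of all genes 17.7% were higher and 8.70% lower, or 5.89% and 15.5% when centred.

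Genes of the cell's general machinery differed between cluster 2 and each of the other B cell clusters in the same direction. All 13 mitochondrially encoded genes were over 2-fold higher than the mean of clusters 1, 4 and 12, with a median log2 ratio of 1.39. In the centred count 9 of 13 were higher. Of all genes 17.7% were higher, or 5.89% when centred. mt-Nd6, the member encoded on the other strand of the mitochondrial genome, stood at 110 CPM (94.0 to 128), against 27.2, 21.6 and 26.3 CPM. Nuclear genes of the same respiratory chain went the other way, with 17 of 30 over 2-fold lower and 0 higher (median -1.09; 26 lower in the centred count). Of all genes 8.70% were lower, or 15.5% when centred. Uqcrh, a hinge subunit of complex III, stood at 212 CPM, against 680, 622 and 736 CPM. Ndufa4 was an exception, with 496 CPM against 338, 385 and 410 CPM.

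Ribosomal protein genes were lower for 79 of 80 tested (median -1.55) and translation factors for 14 of 20 (median -1.23; centred count 16). The share of all genes that was lower was 8.70%, or 15.5% when centred. Tpt1, a translation-associated protein, stood at 2204 CPM, against 7597, 7217 and 6141 CPM. Actin and other short abundant transcripts were lower for 10 of 22 (median -0.99; centred count 15), among them Tmsb4x, an actin-binding peptide, with 3292 CPM against 10168, 7200 and 7557 CPM. Nuclear RNAs were higher for 7 of 10 (median 1.23; centred count 4) and splicing factors for 14 of 25 (median 1.01; centred count 2), beside 17.7% of all genes, or 5.89% when centred. Xist, the nuclear RNA of the inactive X chromosome, stood at 3723 CPM, against 1219, 1095 and 1552 CPM. The direction of these medians was the same against clusters 1, 4 and 12 each, and relative to the median of all genes.

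**Figure D4:**
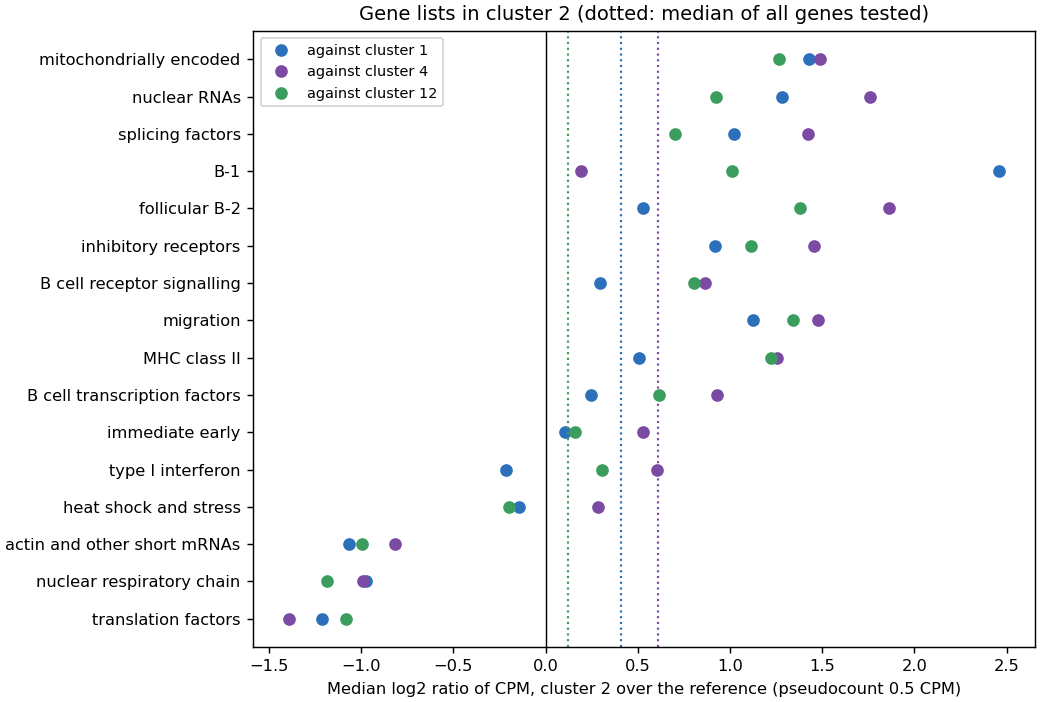
Each point is the median log2 ratio of CPM of a gene list in cluster 2 over cluster 1 (blue), 4 (purple) or 12 (green), with dotted lines at the median of all genes tested in that comparison. Mitochondrially encoded and nuclear RNAs lie to the right and nuclear respiratory chain, translation and actin genes to the left against all 3 clusters, whereas the B-1 list lies at 2.46 against cluster 1 and 0.19 against cluster 4.

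To see which of these differences also separate other clusters with few UMIs from clusters with more, cluster 2 over 1 was set beside cluster 5 over 9 and cluster 14 over 6. The authors named clusters 5, 9 and 14 T cells and cluster 6 Macrophages, and clusters 14 and 6 were paired because both are rich in cell cycle genes. In these pairs 9.64% of genes were over 2-fold higher and 9.07% lower in cluster 5, and 26.2% higher and 14.8% lower in cluster 14. Of 7694 genes tested in all 3 pairs, 1363 were higher in cluster 2, 724 in cluster 5 and 2074 in cluster 14. The lists shared 267 genes, which is 19.6% of the genes higher in cluster 2, 36.9% of those in cluster 5 and 12.9% of those in cluster 14. Genes over 2-fold lower numbered 491, 693 and 944, and 184 were shared by all 3, or 37.5%, 26.6% and 19.5% of each list. The number shared depended on the scaling, with 90 higher and 387 lower when mitochondrially encoded and ribosomal protein genes were left out of the totals, and 54 and 475 with the medians of all genes set to 0.

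The shared genes included mt-Nd6, with log2 ratios of 1.99, 1.66 and 2.62 in the pairs of clusters 2, 5 and 14. Slc7a1, a transporter of basic amino acids, had 1.85, 2.14 and 1.84, and Sun1, a protein of the inner nuclear membrane, 1.55, 2.09 and 2.05. Among the lower ones, Naca, which binds chains leaving the ribosome, had -1.50, -1.52 and -1.70, and Eif3f, an initiation factor subunit, -1.71, -1.47 and -1.50. The medians of mitochondrially encoded genes were 1.43, 1.04 and 1.89, those of nuclear respiratory chain genes -0.97, -0.94 and -0.91, and those of translation factors -1.21, -0.91 and -1.16. The machinery lists thus lay on the same side in the 3 pairs.

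The B-1 list did so in the pairs of clusters 2 and 5, but not in that of cluster 14. Over the 13 members tested in all 3 pairs its median was 1.77 in cluster 2 over 1, with 9 higher and 0 lower, 0.87 in cluster 5 over 9, with 4 higher and 2 lower, and -0.98 in cluster 14 over 6, with 4 higher and 6 lower. The median of all 7694 genes was 0.38, 0.14 and 0.35. The B-1 median was thus above that of all genes in cluster 5 over 9 too. Clusters 14 and 6 differ in named cell type as well as in UMIs per cell. The part of depth in the B-1 result was not tested. Migration genes lay above the median of all genes in each pair (1.12, 0.98 and 0.96).

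Transcript length moved with the ratio in all 3 pairs. Genes were put in 5 groups of equal size by their longest annotated transcript. From the shortest to the longest group, the median log2 ratio of cluster 2 over 1 was -0.23, 0.19, 0.39, 0.55 and 0.73. In cluster 5 over 9 it ran from -0.54 to 0.44, and in cluster 14 over 6 from -0.66 to 0.82. Genes higher in cluster 2 than in cluster 1 had a median transcript of 3974.5 bases, genes lower 1534 bases and the other genes 3382 bases. Ahnak, one of the B-1 genes, has a very long transcript, whereas S100a6 and Cd9 have short ones. The part of length in the results was not tested.

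**Figure D5:**
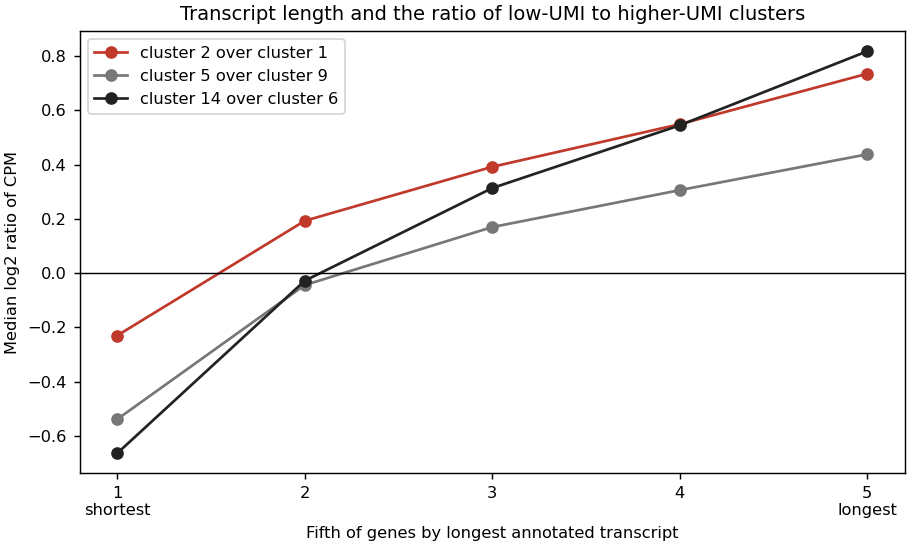
The x axis gives 5 equal groups of genes by the length of their longest annotated transcript, from shortest to longest, and the y axis the median log2 ratio of CPM for cluster 2 over 1 (red), 5 over 9 (grey) and 14 over 6 (black). All 3 lines rise from left to right, for cluster 2 over 1 from -0.23 to 0.73.

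Over 14202 genes, log2(CPM + 0.5) of cluster 2 correlated with that of cluster 1 at Pearson r = 0.945, cluster 4 at 0.936 and cluster 12 at 0.931, followed by cluster 8 at 0.867. These values are across genes, which are not independent replicates, and the clusters share both libraries. Over the 6986 genes with at least 1000 counts in all clusters the values were 0.896, 0.869 and 0.870 for clusters 1, 4 and 12. Cluster 1 came first with both sets of genes, while clusters 4 and 12 changed places.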

How the data were processed

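The authors deposited whole-number counts, the UMIs of a gene added up within each of 20 clusters, and a table that gives each cell its library, cluster and cell type name, per the file headers and the values. Per the submitters' processing notes, Cell Ranger 2.1.1, Seurat and mm9 were used. The sources used here do not say how cells were filtered or whether doublets were removed. No doublet caller was run, because counts per cell were not used here, and doublets may be among the cells.

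The table holds 31053 genes and 70206506 UMIs, with both libraries pooled. CPM was computed from each cluster's total. Ratios used a pseudocount of 0.5 CPM and genes with at least 20 counts over cluster 2 and the reference, which was the unweighted mean CPM of the other 19 clusters, that of clusters 1, 4 and 12, or each alone. Genes over 2-fold higher or lower are counted. UMIs per cell are counts divided by cells. Only shares of cells were compared between libraries, with exact Clopper-Pearson 95% intervals and exact conditional intervals for ratios, for counting error only. No test was made, since each treatment has 1 library. Transcript lengths came from GENCODE M21, which uses another build, so no coordinates are given. It gave a length for 99.0% of genes.

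Named genes are the 15 highest over each reference and the 15 lowest against clusters 1, 4 and 12 (at least 50 counts), 2 members per list by ratio and 2 by counts, the 10 leading genes of the low-UMI pairs, and members of the B cell lists. The cluster, its members, the 36 gene lists and the rule were chosen with earlier results of these data known. The name B cells is that of the authors, and 7 B cell markers were among the leading 50 genes. Il5ra and Siglecg, among the 10 leading genes, were given with the cluster and lend the name no support. The mean depth is under that of most clusters. Alternatives were other totals, centring, count minimums, pseudocounts and references. Calculations were tested on simulated data with Python 3.11.15, scipy 1.17.1, numpy 2.4.6 and pandas 2.3.3.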

Additional observations from a re-analysis of the deposited data

How the results depend on the processing

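Against the mean of clusters 1, 4 and 12, the counts of 1929 genes higher and 946 lower became 799 and 1587 without mitochondrially encoded and ribosomal protein genes in the totals, 640 and 1687 with the median of all genes set to 0, and 892 and 496 with a pseudocount of 5 CPM. They were 581 lower against cluster 1 alone, 3264 higher against cluster 4 alone and 1147 higher and 1210 lower against cluster 12 alone, where 48.7% of calls were higher. Lists with a median of 1 or more, 11 at first, numbered 3, 2 and 4 under those first 3 settings and 21 against cluster 4 alone. Lists at -1 or less, 4 at first, numbered 1 against cluster 4 alone and 1 against clusters 1 and 4, a reference chosen after seeing the data. The T cell marker median of -1.85 turned to 0.77 against cluster 1, 1.41 against cluster 4 and 1.04 against both, and the mast cell and basophil median of -2.46 to 1.91 against cluster 4 and 0.0277 against both, since these markers were high in cluster 12. No other list median of at least 1 in size changed sign under the alternatives run.

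Against the other 19 clusters, 1421 genes higher became 2170 with the median set to 0 and 728 with a pseudocount of 5 CPM, where 3764 lower became 1711. The split of calls there moved from 27.4% to 43.2% higher with the median set to 0. Shared genes of the low-UMI pairs, 267 higher and 184 lower, became 90 and 387 without those genes in the totals and 54 and 475 with the median set to 0. The mean of 2296 UMIs per cell was 2064 without mitochondrially encoded genes, and r with cluster 1 was 0.896 at 1000 counts. The cause of the other changes was not tested. With 1 library per treatment no library could be left out, and no paired analysis was possible because neither treatment has a replicate. Depth limits genes with few counts: 3 counts in cluster 2 equal 1.96 CPM.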
